A study of Rattus norvegicus with 60 samples.

Results

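The genes described here are 34 markers of blood-derived immune cells: 14 of macrophages and other myeloid cells, 5 carried by nearly all leukocytes, 13 of T and cytotoxic cells and 2 of B cells. They were chosen by gene symbol, which 35 of the 32545 rows of the deposited count table carry, because the cytotoxic protease gene Gzmb stands on 2 rows. Their mRNA was measured by poly(A) RNA sequencing of snap-frozen rat kidney, in pieces of cortex and of outer medulla. The NOX4 groups are a knockout line for the oxidase gene Nox4 on the Dahl salt-sensitive background, and the SS groups are wild-type rats of that background. Each strain was sampled on the control diet (LS), after 7 days of 4.0% NaCl (HS7) and after 21 days of 4.0% NaCl (HS21). That gives 12 groups with 5 libraries in each, and 60 libraries altogether. The Dahl background, which becomes hypertensive on salt, is shared by all groups. The labels give no age, sex or litter, do not tie libraries of a number to one animal, and do not say whether the knockout is more than 1 line.

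The kidney holds resident macrophages between its tubules, and in hypertension on a high-salt diet macrophages and T cells gather there. Macrophages depend on colony-stimulating factor 1, whose receptor is Csf1r, and take up debris through scavenger and mannose receptors such as Msr1 and Mrc1. T cells are recognised by the CD3 chains (Cd3d, Cd3e, Cd3g and Cd247), which pass the antigen receptor's signal to the kinases Lck and Zap70. In the rat, Cd4 is carried by monocytes and macrophages as well as by helper T cells. The transcription factor PU.1, which drives myeloid and B cell genes, binds purine-rich sites around GAGGAA.

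Promoter sequences (a window around the gene start; RefSeq, GRCr8) were listed for 25 of the 34 members, Lck with 2 of them. No entry was matched for Tyrobp, Fcer1g, Fcgr2b, Aif1, Msr1, Itgb2, Cd4, Ms4a1 and Cd79b. The letters GAGGAA, on either strand (TTCCTC on the other), stood in 7 of 9 myeloid promoters (77.8%), 3 of 4 pan-leukocyte promoters (75%) and 3 of 13 promoters of T and cytotoxic genes (23.1%), against 27.6% of all 33469 promoters of this length in the table. No other motif is counted here, and a match is a string of letters, not a binding site. The 4 promoters below belong to members whose mRNA was lower in NOX4 outer medulla over all diets: 3 myeloid genes and, for contrast, the T cell kinase gene Zap70, which has no match. Capitals mark each match. Mrc1 lies at chr17:82157475-82157774 (plus strand), Itgam at chr1:192089342-192089641 (plus), Adgre1 at chr9:2329190-2329489 (plus) and Zap70 at chr9:46485355-46485654 (plus).
Mrc1: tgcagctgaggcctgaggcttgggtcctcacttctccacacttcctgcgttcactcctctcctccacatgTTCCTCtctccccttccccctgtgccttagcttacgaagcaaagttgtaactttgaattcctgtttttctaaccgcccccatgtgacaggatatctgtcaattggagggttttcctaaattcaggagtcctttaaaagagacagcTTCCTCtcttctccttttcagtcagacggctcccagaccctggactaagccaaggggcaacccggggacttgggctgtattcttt
Itgam: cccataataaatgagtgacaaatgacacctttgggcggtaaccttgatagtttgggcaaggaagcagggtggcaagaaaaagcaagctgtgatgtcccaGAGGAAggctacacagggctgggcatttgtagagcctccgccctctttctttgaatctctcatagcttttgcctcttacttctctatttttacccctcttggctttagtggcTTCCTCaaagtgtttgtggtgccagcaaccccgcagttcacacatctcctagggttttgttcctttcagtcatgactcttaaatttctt
Adgre1: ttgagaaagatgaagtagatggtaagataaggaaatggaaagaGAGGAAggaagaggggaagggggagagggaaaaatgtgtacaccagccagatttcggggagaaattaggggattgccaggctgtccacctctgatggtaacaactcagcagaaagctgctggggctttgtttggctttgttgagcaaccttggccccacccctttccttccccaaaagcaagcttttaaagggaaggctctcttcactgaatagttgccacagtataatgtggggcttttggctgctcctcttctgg
Zap70: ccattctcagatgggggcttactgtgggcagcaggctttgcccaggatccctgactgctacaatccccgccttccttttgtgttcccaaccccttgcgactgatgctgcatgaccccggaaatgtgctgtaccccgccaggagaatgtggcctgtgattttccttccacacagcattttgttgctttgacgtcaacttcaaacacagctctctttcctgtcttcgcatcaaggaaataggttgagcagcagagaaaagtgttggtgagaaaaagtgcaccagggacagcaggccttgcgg
In Mrc1 the matches start 180 and 35 bases before the gene start, in Itgam 151 and 39 bases, and in Adgre1 207 bases.

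Library totals ran from 11.5 M to 29.6 M counts. Nox4 itself had 54.7 to 77.7 CPM (counts scaled to a common library total) in the 15 NOX4 cortex libraries and 251 to 530 CPM in the 15 SS cortex libraries. In outer medulla it had 1.83 to 15.1 CPM in NOX4 and 6.35 to 111 CPM in SS, and the ranges overlapped. In 11 SS libraries at least 10 genes of moderate level (2 to 5 CPM) had no count: after thinning to 10 M counts they held 14083 to 16112 genes, against 16909 to 18388 in the other libraries. These low-complexity libraries are cortex LS 2, 3 and 4, cortex HS7 1 and 4, outer medulla LS 2, 3 and 5, and outer medulla HS7 1, 3 and 4. Several results below are given without them too, but not all. The class means and the numbers of interaction terms below 0 are among those given with them only. The library names number every SS library before every NOX4 library, so strain and library order cannot be told apart. Within SS the numbers run from LS through HS7 to HS21, so salt time and library order cannot be told apart there either. The NOX4 HS7 cortex libraries 3 and 4 carry the numbers 62 and 63, after all others and out of the run of their group.

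Myeloid transcripts made up most of the signal. Per kilobase of gene length, the highest member was Lyz2, the lysozyme of macrophages and neutrophils, with a mean level of 815 CPM per kb in outer medulla and 200 in cortex. It was followed by Fcer1g (151 and 41.3) and Tyrobp (106 and 30.9), adaptor proteins that carry the signals of activating receptors in myeloid and natural killer cells. Next came Coro1a, an actin-binding protein of leukocytes (67.3 and 23.6), Csf1r (66.4 and 17.6) and Cd4 (55.2 and 20.1). The pan-leukocyte genes Laptm5, a lysosomal membrane protein, and Ptprc, the leukocyte common antigen, had 54.0 and 16.7 CPM per kb in outer medulla and 15.6 and 5.53 in cortex.

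The defining T cell genes were far lower than Cd4 on the same per-kilobase scale. Cd3e had 4.77 CPM per kb in outer medulla and 1.03 in cortex, Cd3g 7.19 and 1.66, and Cd3d 3.06 and 0.640. Cd8a, the chain of cytotoxic T cells, had 7.00 and 2.41, and Nkg7, of cytotoxic granules, 3.51 and 2.26. B cell genes were lower again: Cd79b, which signals for the B cell receptor, had 1.59 and 0.152 CPM per kb, and Ms4a1, the CD20 antigen, 0.225 and 0.0632. The scavenger receptor gene Cd163, a macrophage marker in other settings, was near 0 in both tissues (mean 0.0722 CPM in outer medulla and 0.169 CPM in cortex, with no count in 17 and 5 of 30 libraries). Of the 35 rows, 32 passed the filter on low counts in outer medulla and 29 in cortex. Cd163, Ms4a1 and the second Gzmb row passed in neither tissue, and Cd5, Cd79b and the first Gzmb row passed in outer medulla but not in cortex.

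Outer medulla held more mRNA of the immune markers than cortex, in the myeloid, pan-leukocyte and T cell classes. Of the B cell class only Cd79b was tested. Averaged over strains and diets, 30 of the 32 tested members were higher in outer medulla and none was lower (edgeR quasi-likelihood test over all 60 libraries, Benjamini-Hochberg adjusted p under 0.05). Cd79b, Cd5 and the first Gzmb row passed the filter only through outer medulla, and Cd163, whose mean was higher in cortex, was filtered out. Over the 29 rows that passed in both tissues 27 were higher and none was lower. The median log2 fold change of the 32 was 1.22, against 0.03 over all 16326 genes tested, of which 71.6% were called. The median was 1.22 in the 13 myeloid members, 1.24 in the 5 pan-leukocyte members and 1.17 in the 13 tested T and cytotoxic rows. In whole tissue, more cells of a type and more RNA per cell cannot be told apart.

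**Figure D1:**
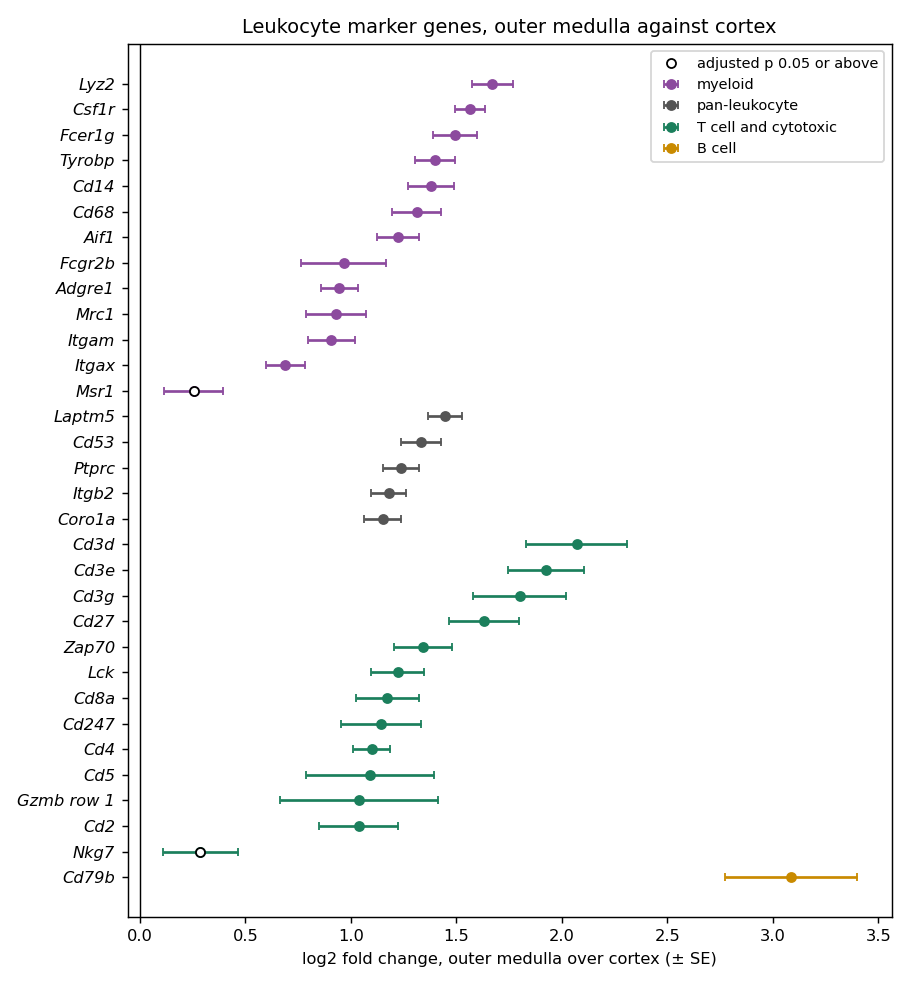
Log2 fold change of outer medulla over cortex (x axis, points with SE bars) for the 32 tested marker genes (y axis), coloured by class, with open points for genes not called. All 32 points lie right of 0, from 0.25 for Msr1 to 3.08 for Cd79b.

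The difference was seen in lymphocyte and in myeloid genes. Several lymphocyte genes were near the floor in cortex, where Cd79b averaged 0.183 CPM (7 of 30 libraries at 0; under the filter there) and Cd3d 0.461 CPM (5 of 30 at 0), so the sizes of their folds rest on few cortex counts. Cd79b had a log2 fold change of 3.08 ± 0.31 (SE; adjusted p = 8.13e-13), Cd3d 2.07 ± 0.24 (4.67e-11), Cd3e 1.93 ± 0.18 (5.74e-14) and Cd3g 1.80 ± 0.22 (2.10e-10). Among myeloid genes Lyz2 had 1.67 ± 0.10 (7.14e-22) and Csf1r 1.56 ± 0.07 (2.98e-26), whose levels did not overlap between tissues: Csf1r ran from 142 to 379 CPM in outer medulla and from 36.8 to 99.9 CPM in cortex, each tissue scaled on its own. Mrc1 differed less, at 0.93 ± 0.14 (8.12e-08). The members not called were Msr1 (0.25 ± 0.14, adjusted p = 0.0961) and Nkg7 (0.29 ± 0.18, adjusted p = 0.148).

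Immune genes outside the 34 were called at shares to be read against the 71.6% of all genes. Of 22 other macrophage and dendritic cell genes tested, 20 were higher in outer medulla and 2 lower (100% called), with a median log2 fold change of 1.19, led by the Fc receptor gene Fcgr1a (1.42 ± 0.08, adjusted p = 7.46e-22) and the phagocyte oxidase gene Cybb (1.33 ± 0.08, 7.47e-21). Of 19 other T and natural killer cell genes 10 were higher and 4 lower (73.7% called, median 0.66). The co-stimulatory receptor gene Cd28 was lower at -2.53 ± 0.17 (9.91e-20). Of 9 other B and plasma cell genes 6 were higher and none lower (66.7% called, median 0.79), with Cd79a, the partner of Cd79b, at 2.61 ± 0.36 (5.82e-09).

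Genes of blood, stroma and tubules differed between the tissues too. All 4 matched red blood cell genes were higher in outer medulla (median log2 fold change 1.75), with group means of their summed level from 548 to 780 CPM in outer medulla and from 206 to 326 CPM in cortex. Of 4 tested neutrophil and monocyte genes 2 were higher and 1 lower. Of 9 fibroblast and matrix genes 8 were higher and 1 lower, and of 7 endothelial genes 4 were higher and 2 lower. All 6 thick ascending limb genes were higher and all 6 podocyte genes lower. The part of blood or stroma in the tissue difference was not tested.

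In outer medulla, some macrophage receptors and the pan-leukocyte gene Ptprc had lower mRNA in NOX4 than in SS rats. Averaged over the diets, 8 of 32 tested members were lower and none was higher, 25% against 30.4% of all 15799 genes tested, so the share of members called was no larger than that of all genes. The called members all went down, whereas called genes in general split 2430 higher to 2380 lower. Members are not independent of one another, since single libraries moved most of them together, so their shared direction is not a count of separate results. The median log2 fold change of the members was -0.20, against -0.02 for all genes. Of the 8, 4 were myeloid (Mrc1, Itgam, Adgre1 and Msr1), 1 pan-leukocyte (Ptprc) and 3 of the T cell class (Cd4, Zap70 and Cd27).

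Mrc1, the mannose receptor, differed most. At LS it had 10.6, 7.6, 7.86, 6.77 and 8.87 CPM in the NOX4 libraries, against 9.59, 8.82, 32.1, 30.4 and 8.32 CPM in SS. At HS7 it had 9.86, 11.2, 8.1, 10.3 and 17.5 CPM in NOX4, against 23.9, 28.9, 6.68, 16 and 21.3 CPM in SS. At HS21 it had 10.1, 10.9, 16.2, 8.57 and 11 CPM in NOX4, against 35.2, 31.8, 46.1, 47.0 and 13.4 CPM in SS. NOX4 libraries stayed low at all diets, all 15 of them under the mean of the 15 SS libraries, while SS libraries spread widely: replicates 3 and 4 stood high at LS, replicate 3 low at HS7 and replicate 5 low at HS21, so the strains overlapped at each diet. The log2 fold change averaged over diets was -1.16 ± 0.22 (adjusted p = 0.000391) and kept its call when any 1 library was left out.

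Itgam, an integrin chain of macrophages and neutrophils, followed at -0.61 ± 0.13 (adjusted p = 0.000959; 15 of 15 NOX4 libraries under the mean of the 15 SS libraries, the measure used for the counts below). At HS21 it had 12.5, 10.8, 12.2, 11.6 and 13.7 CPM in NOX4, against 23.5, 21.2, 19.5, 25.6 and 11.8 CPM in SS, where only SS replicate 5 fell among the NOX4 libraries. At LS and HS7 its NOX4 levels ran from 6.14 to 14.3 CPM and its SS levels from 9.06 to 22.5 CPM. Adgre1, an adhesion receptor of macrophages, had -0.48 ± 0.12 (0.00352; lower in 14 of 15). At HS21 it had 59.3, 52.8, 43.8, 51.5 and 52.0 CPM in NOX4, against 81.4, 73.4, 99.8, 99.7 and 45.5 CPM in SS, again with SS replicate 5 alone among the NOX4 values. Msr1 had -0.69 ± 0.21 (0.0125; lower in 15 of 15), with means of 2.32, 3.00 and 3.15 CPM in NOX4 at LS, HS7 and HS21 and 4.85, 3.54 and 5.44 CPM in SS.

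Ptprc was called lower in NOX4 averaged over diets but at no single diet. At LS it had 57.0, 63.0, 67.3, 61.1 and 59.3 CPM in NOX4, against 83.8, 99.3, 86.0, 68.5 and 87.6 CPM in SS. Every NOX4 library lay under every SS library, the nearest at 67.3 and 68.5 CPM. At HS7 it had 66.7, 82.9, 95.2, 103 and 69.4 CPM in NOX4, against 112, 114, 40.0, 103 and 127 CPM in SS. At HS21 it had 79.5, 73.3, 63.5, 75.7 and 71.9 CPM in NOX4, against 114, 108, 110, 116 and 68.6 CPM in SS. SS replicate 3 at HS7 lay below all NOX4 libraries, and SS replicate 5 at HS21 lay among them. Averaged over diets its log2 fold change was -0.41 ± 0.11 (adjusted p = 0.00720).

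The 3 T cell class members were lower by smaller amounts. Cd4 had -0.35 ± 0.11 (adjusted p = 0.0157), with means of 78.7, 86.4 and 88.5 CPM in NOX4 at LS, HS7 and HS21 and 91.4, 106 and 128 CPM in SS. Zap70 had -0.30 ± 0.12 (0.0457) and Cd27, a co-stimulatory receptor, -0.36 ± 0.14 (0.0487), and both lost their call in 19 of 30 fits with 1 library left out. The CD3 chain genes were not called (Cd3e -0.32 ± 0.13, adjusted p = 0.0574). With uncalled members included, both classes had most but not all log2 fold changes below 0. In the myeloid class 9 of 13 were below 0 and 4 above (median -0.22). In the T cell class 11 of 13 were below 0 and 2 above (median -0.27). Cd4, which rat macrophages also carry, does not stand for T cells alone. A difference between the classes was not tested.

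Tubule and matrix genes differed between the strains beside these calls. The summed level of 8 genes of the third segment of the proximal tubule had group means of 7340 to 7860 CPM in NOX4 outer medulla and 2510 to 5870 CPM in SS outer medulla, with 6 of the 8 genes called higher in NOX4. Of 9 fibroblast and matrix genes 8 were called lower in NOX4, with group means of their sum from 1900 to 2210 CPM in NOX4 and from 3360 to 5860 CPM in SS. With the segment 3 score as a covariate none of the 8 members was still called, though all 8 log2 fold changes stayed below 0. Adgre1 had -0.40 and Msr1 -0.55 in that fit, Mrc1 -0.57 and Ptprc -0.19, and Lyz2 was called higher in NOX4 instead. Without the low-complexity libraries 10 members were lower, 7 of the 8 among them, and without SS HS7 replicate 3 alone 14 were lower.

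**Figure D2:**
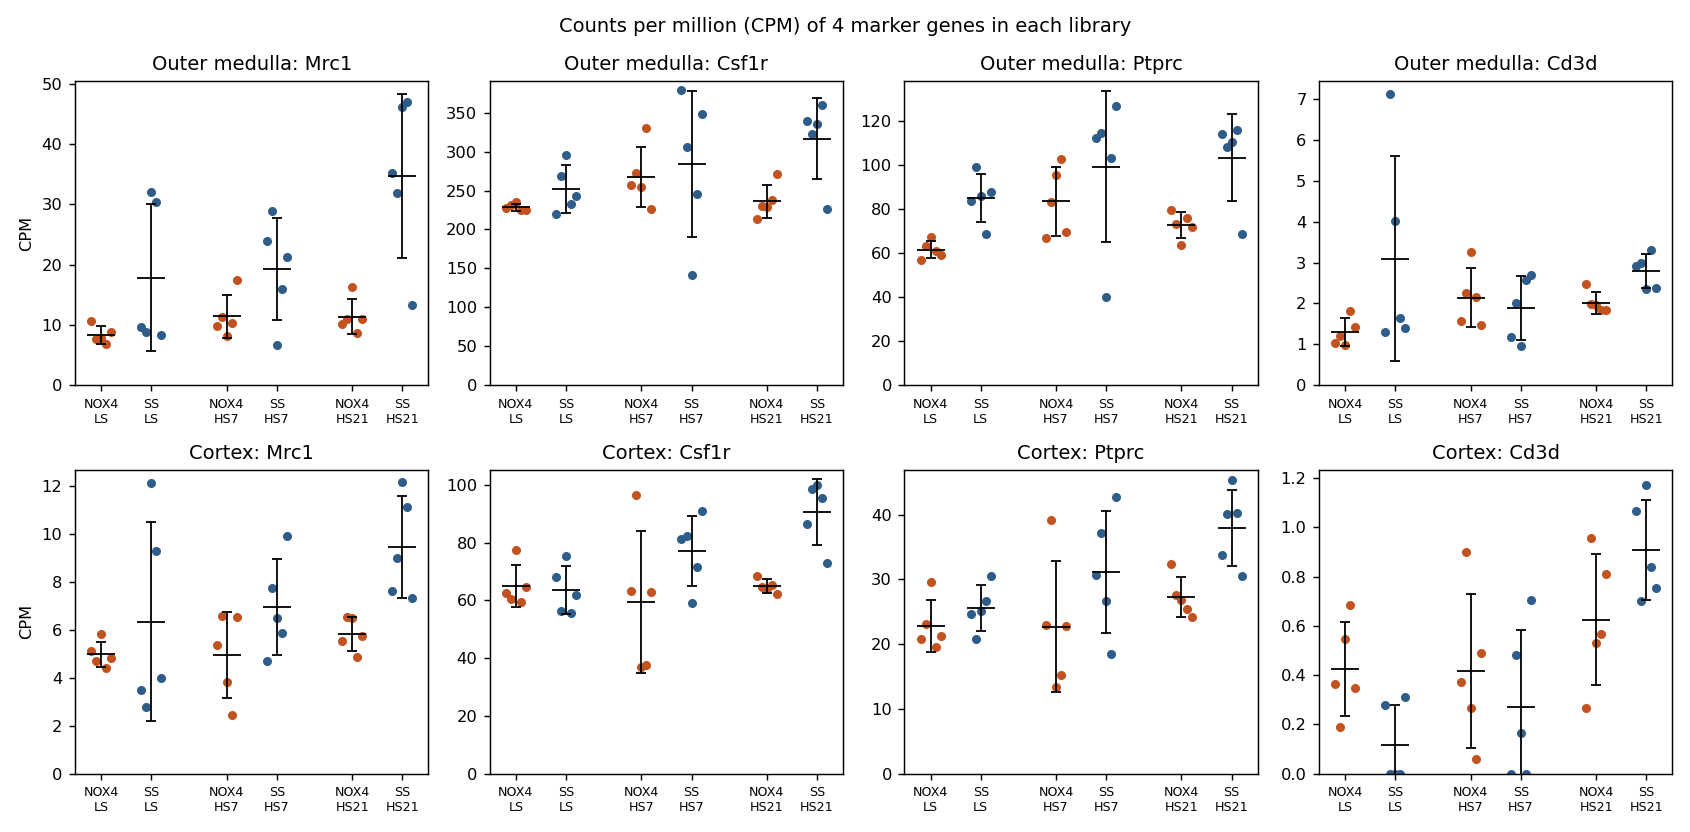
CPM (y axis) of Mrc1, Csf1r, Ptprc and Cd3d in each library of outer medulla (top) and cortex (bottom), by diet with NOX4 left of SS, dots in replicate order, bars the mean and SD of 5 libraries, cut at 0. In outer medulla, Mrc1 lies between 6.77 and 17.5 CPM in NOX4 and between 6.68 and 47.0 CPM in SS.

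In cortex, 5 of 29 tested members were lower in NOX4 averaged over diets and none was higher, 17.2% against 31.7% of all 15179 genes. They were 3 macrophage receptors (Mrc1, Msr1 and Csf1r) and 2 pan-leukocyte genes (Cd53 and Ptprc), and no T cell member was called. The median log2 fold change of the members was -0.19, against 0.00 for all genes. Mrc1, Msr1 and Ptprc were called lower in both tissues.

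Cd53, a tetraspanin of leukocytes, had the smallest p. At LS it had 11.5, 9.28, 14.4, 10.7 and 9.24 CPM in NOX4, against 11.4, 11.8, 8.28, 13.4 and 14.4 CPM in SS, and the groups overlapped. At HS7 it had 11.4, 19.3, 6.28, 6.29 and 10.8 CPM in NOX4, against 19.2, 18.5, 11.4, 23.4 and 23.5 CPM in SS, with NOX4 replicates 3 and 4 lowest and replicate 2 level with SS. At HS21 it had 12.6, 14.0, 12.4, 13.1 and 9.33 CPM in NOX4, against 16.1, 18.5, 21.2, 17.7 and 13.9 CPM in SS, where SS replicate 5 lay just under the highest NOX4 library. Its log2 fold change averaged over diets was -0.48 ± 0.13 (adjusted p = 0.00662; lower in 14 of 15 NOX4 libraries), and it was called under every alternative run.

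Csf1r, Mrc1, Msr1 and Ptprc had log2 fold changes of -0.27 ± 0.10 (adjusted p = 0.0317), -0.51 ± 0.17 (0.0259), -0.59 ± 0.19 (0.0169) and -0.36 ± 0.12 (0.0214). Csf1r at HS21 had 68.5, 64.8, 63.9, 65.3 and 62.1 CPM in NOX4, against 86.4, 98.6, 99.9, 95.3 and 72.8 CPM in SS. All NOX4 libraries lay under all SS libraries at that time, whereas at LS the means were 64.9 ± 7.24 and 63.5 ± 8.35 CPM (SD, n = 5). Of the 5 members only Cd53 was called without the NOX4 HS7 libraries 3 and 4, and likewise with the segment 3 score as a covariate, where Mrc1 had -0.68, Msr1 -0.52, Ptprc -0.45 and Csf1r -0.31. Without NOX4 HS7 replicate 2, by contrast, 11 members were called lower, and without SS LS replicate 3, 3 members.

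The tubule genes moved differently in cortex. The summed segment 3 level had group means of 3270 to 3630 CPM in NOX4 cortex and 4310 to 7740 CPM in SS cortex, with 5 of 8 genes called lower in NOX4. The fibroblast and matrix sum had 663 to 900 CPM in NOX4 cortex and 1080 to 1530 CPM in SS cortex, with 8 of 9 genes called lower. Their part in the marker differences was not tested beyond the covariate fit. Podocyte genes were higher in NOX4 cortex (6 of 6 called, median log2 fold change 0.45).

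The strains were also compared within each diet. On the control diet no member was called in cortex (edgeR; 22.0% of all genes called, 1 member at an unadjusted p under 0.05, none by DESeq2), and 20 of 29 log2 fold changes were above 0 (median 0.10). In outer medulla 3 of 32 were lower in NOX4, 9.38% against 14.8% of all genes: Zap70 (-0.65 ± 0.20, adjusted p = 0.0319), Cd3d (-1.24 ± 0.39, 0.0341) and Msr1 (-1.06 ± 0.36, 0.0475). Zap70 had 4.08, 4.07, 4.58, 5.13 and 3.87 CPM in NOX4, against 5.56, 6.80, 7.30, 6.33 and 8.11 CPM in SS, with no overlap. Cd3d had 1.04, 1.20, 0.982, 1.82 and 1.42 CPM in NOX4, against 1.31, 7.12, 4.02, 1.63 and 1.39 CPM in SS, so its difference rested on SS replicates 2 and 3, both of low complexity. Without the low-complexity libraries 1 member was called, and without SS LS replicate 3 or NOX4 LS replicate 1, 2 or 3 none was; without NOX4 LS replicate 5, 1 was.

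After 7 days of salt few members passed the test between the strains. In cortex Cd53 alone was lower in NOX4 (-0.82 ± 0.23, adjusted p = 0.0150; 17.4% of all genes called, 3.45% of members). Without NOX4 HS7 replicate 3, or replicate 4, that call was lost, and without replicate 2, 9 members were called lower. In outer medulla no member was called (9.61% of all genes; 7 members at an unadjusted p under 0.05; DESeq2 called Coro1a higher), and the median log2 fold change was 0.14. Without SS HS7 replicate 3, 5 members were called lower there, and without NOX4 HS7 replicate 5, 2 were called higher, so the direction of the calls depended on single libraries. Without NOX4 HS7 replicates 3 and 4 the median was -0.22.

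After 21 days nearly all members had lower levels in NOX4, but few passed the test. In outer medulla all 32 log2 fold changes were below 0, with a median of -0.43 against -0.02 for all genes, and 1 was called, Mrc1 (-1.61 ± 0.38, adjusted p = 0.0297; 3.13% of members against 1.63% of all genes). In cortex 27 of 29 were below 0, with a median of -0.42 against 0.00 for all genes, and none was called by edgeR or DESeq2 (1.00% of all genes; 6 members at an unadjusted p under 0.05). Nkg7 and Cd8a were the 2 cortex members above 0. The members are not independent of one another, since single libraries moved most of them together, as given below.

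The number of members that passed at HS21 differed between fits, and the cause was not tested. Fitted on the 10 libraries of the compared groups alone, 13 members were called lower in outer medulla and 10 in cortex, Mrc1, Csf1r, Cd4, Ptprc, Cd53 and Cd3g among them in both. The authors' deposited table likewise has 19 member rows lower in outer medulla and 13 lower in cortex at an adjusted p under 0.05, and none higher. At LS that table has 3 lower and 1 higher in NOX4 outer medulla and none in cortex, and at HS7 none in either tissue. Without the low-complexity libraries, none of which is an HS21 library, 9 were called lower in outer medulla and none in cortex. The shares of all genes called in these fits and in the authors' table are not set beside these counts. The counts therefore cannot show an excess of members over other genes. Without SS HS21 replicate 5, 5 were called lower in outer medulla, and without any 1 of 8 other libraries of the 2 groups the Mrc1 call was lost.

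**Figure D3:**
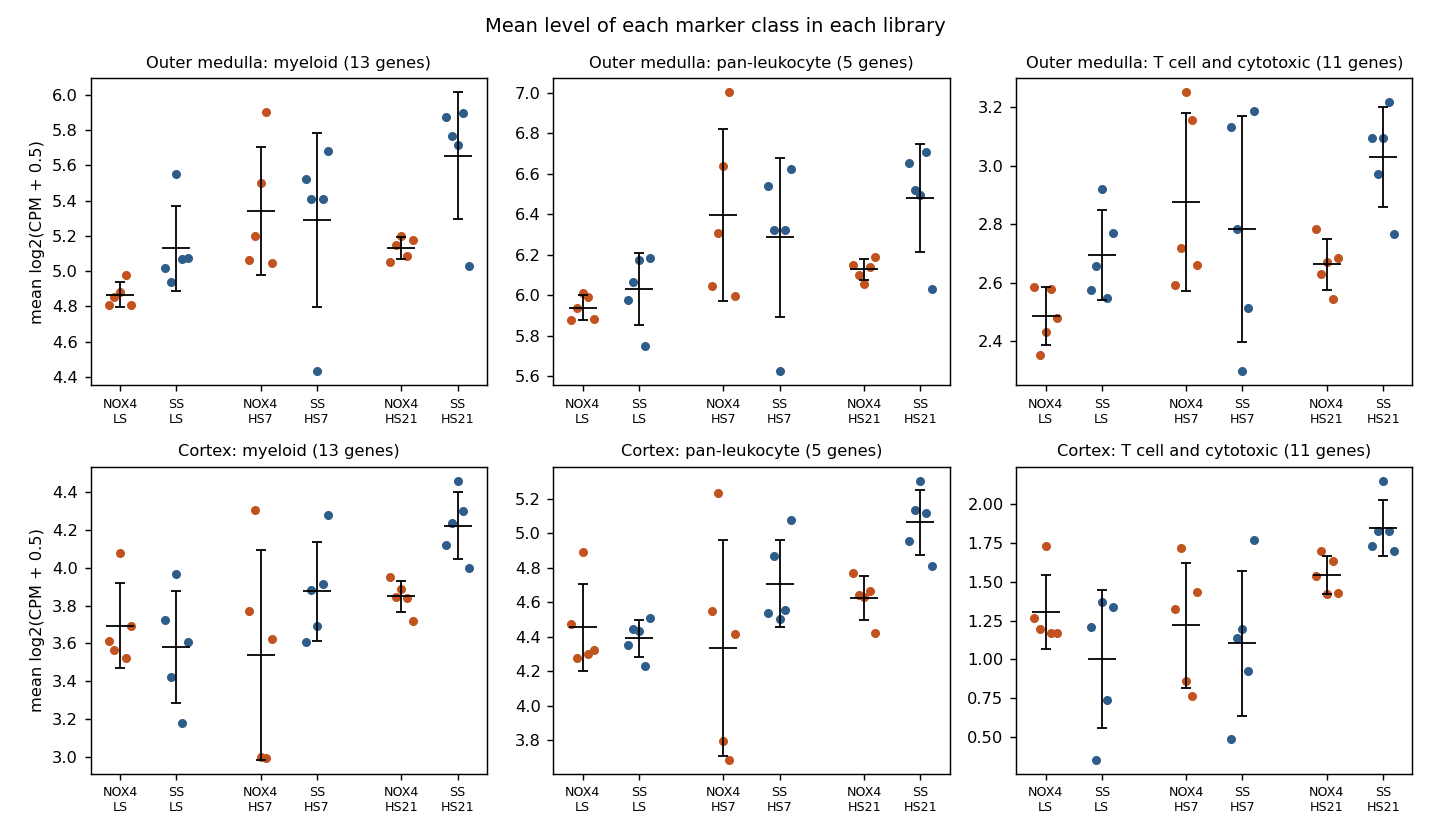
Mean log2(CPM + 0.5) of the members of each class (y axis) in each library, outer medulla above cortex, by diet with NOX4 left of SS, dots in replicate order, bars the mean and SD of 5 libraries. At HS21 the NOX4 libraries lie close together and the SS libraries higher, except SS outer medulla replicate 5.

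The mean of log2(CPM + 0.5) over each class's members shows the same picture by library, given as a description with no test. At HS21 the myeloid mean was 5.13 ± 0.06 in NOX4 outer medulla and 5.66 ± 0.36 in SS outer medulla (SD, n = 5). In cortex it was 3.85 ± 0.08 in NOX4 and 4.22 ± 0.18 in SS. The spread among NOX4 libraries at HS21 was small in both tissues, and SS outer medulla replicate 5, at 5.03, lay below all NOX4 libraries. That SS library also had 6920 CPM of segment 3 genes and 3380 CPM of fibroblast and matrix genes, the highest and lowest of its group.

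Immune marker mRNA was higher in SS cortex after 21 days of salt than on the control diet. In SS cortex 8 of 29 members were higher at HS21 than at LS and none was lower, 27.6% against 16.5% of all genes. All 29 log2 fold changes were above 0, with a median of 0.58 against 0.01 for all genes. The 8 were 5 myeloid genes (Cd68, Csf1r, Fcgr2b, Itgam and Lyz2), the pan-leukocyte genes Coro1a and Laptm5, and Cd3d. The SS cortex libraries had totals of 20.7 to 26.8 M counts at HS21 and 13.4 to 16.6 M at LS, with no overlap. The part of library total in the marker difference was not tested.

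Coro1a had 49.1, 51.9, 60.2, 53.5 and 44.6 CPM in SS cortex at HS21, against 27.6, 34.6, 28.2, 15.0 and 30.1 CPM at LS, with no overlap (log2 fold change 0.94 ± 0.22, adjusted p = 0.00485). Laptm5 had 45.6, 49.4, 62.0, 51.6 and 42.1 CPM at HS21, against 27.0, 31.0, 31.4, 30.5 and 29.0 CPM at LS, again apart (0.75 ± 0.21, 0.0130). Lyz2 had 315, 298, 365, 308 and 228 CPM at HS21, against 192, 172, 222, 175 and 203 CPM at LS (0.65 ± 0.22, 0.0426). All 3 genes thus had every HS21 library above every LS library. Separation and calls did not coincide: Aif1, Cd3e and Fcer1g were also apart without a call, whereas Csf1r and Itgam were called and overlapped. The share of all genes with groups apart was not counted.

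Cd68, a lysosomal protein of macrophages, rose by 0.89 ± 0.29 (adjusted p = 0.0353), Csf1r by 0.51 ± 0.17 (0.0363), Itgam by 0.91 ± 0.32 (0.0471) and the inhibitory Fc receptor gene Fcgr2b by 1.87 ± 0.63 (0.0393). Cd3d had 1.07, 0.703, 1.17, 0.840 and 0.754 CPM at HS21, against 0.279, 0, 0, 0 and 0.312 CPM at LS. Its fitted log2 fold change of 2.83 ± 0.80 (0.0161) rests on 3 LS libraries with no count, all of low complexity. Without the low-complexity libraries, which leaves 2 LS libraries, none of the 8 was called and Mrc1 was called higher instead, while the median log2 fold change of the members was 0.61. With 1 library left out the count was 3 without SS LS replicate 4 or SS HS21 replicate 2, 3 or 4, and 5 without SS LS replicate 2. Other cell types moved in the same comparison. The fibroblast and matrix sum averaged 1530 CPM at HS21 and 1080 CPM at LS (Fn1 called higher of 9 genes), and the thick ascending limb sum 2860 CPM at HS21 and 3990 CPM at LS (Slc12a1 and Cldn16 lower and Ptger3 higher of 6). Of 8 genes of the third proximal tubule segment, 3 were lower at HS21. Their part in the marker difference was not tested.

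In SS outer medulla the salt response reached the threshold for 3 of 32 members, all higher at HS21, 9.38% against 9.86% of all genes. Coro1a had 0.70 ± 0.19 (adjusted p = 0.0194), Cd3g 1.16 ± 0.35 (0.0361) and Adgre1 0.63 ± 0.21 (0.0494). Cd3g had 5.70, 6.44, 6.22, 7.62 and 4.74 CPM at HS21, against 4.51, 0.971, 0.657, 2.91 and 4.58 CPM at LS, where replicates 2 and 3, of low complexity, were lowest. The median log2 fold change was 0.40 against 0.02 for all genes, and 28 of 32 were above 0. Library totals in SS outer medulla were 17.5 to 26.3 M counts at HS21 and 12.1 to 18.8 M at LS. Without the low-complexity libraries 8 members were higher, Coro1a and Adgre1 still among them, and without SS HS21 replicate 5, 6 were higher. None was called without SS LS replicate 4 or SS HS21 replicate 4, and 1 was called without SS LS replicate 2 or SS HS21 replicate 1, 2 or 3. In the same comparison the fibroblast and matrix sum averaged 5860 CPM at HS21 and 3360 CPM at LS (Col1a1 and Col3a1 called higher), and the thick ascending limb sum 12700 CPM at HS21 and 19400 CPM at LS (none of 6 genes called). Of 7 endothelial genes 3 were lower, and of 6 podocyte genes 1 was. Their part in the marker difference was not tested.

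After 7 days of salt no SS member was called in either tissue by edgeR or DESeq2 (2.25% of all genes in cortex and 2.37% in outer medulla; 2 and 3 members at an unadjusted p under 0.05). Medians were 0.28 in cortex and 0.19 in outer medulla. The levels in SS thus ran in the order LS, HS7, HS21 in both tissues: the mean over all 29 members tested in both tissues, in log2(CPM + 0.5), was 2.74, 2.97 and 3.47 in cortex and 4.36, 4.51 and 4.80 in outer medulla. The SD between libraries of a group was 0.17 to 0.32 in cortex and 0.18 to 0.42 in outer medulla, so neighbouring times overlapped. The order LS, HS7, HS21 is also that of the SS library numbers.

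In NOX4 rats no member was called for salt at either time in either tissue, and neither was any other gene (edgeR; 0% of all genes in each of the 4 comparisons). In cortex no member reached an unadjusted p under 0.05 at HS7 or HS21 by edgeR or DESeq2, and the medians were -0.07 and 0.18. Without NOX4 replicates 3 and 4 the HS7 median in cortex was 0.28. In outer medulla 15 members reached it at HS7 and 1 at HS21, with medians of 0.45 and 0.19, and DESeq2 called Zap70 higher at HS7 and no member at HS21. The HS7 median in outer medulla was 0.20 without NOX4 replicates 3 and 4, when no member had an unadjusted p under 0.05.

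A salt effect passing in SS and not in NOX4 is not shown to differ between the strains. The interaction, the salt effect at HS21 in NOX4 minus that in SS, was tested directly and was called for no member by edgeR or DESeq2, against 1.08% of all genes in cortex and 0.0253% in outer medulla. In cortex 28 of 29 interaction terms were below 0 (median -0.42; 4 members at an unadjusted p under 0.05), with the smallest p for Coro1a (-0.74 ± 0.31, adjusted p = 0.225) and Laptm5 (-0.67 ± 0.29, 0.245). In outer medulla 24 of 32 were below 0 (median -0.24; 1 member at an unadjusted p under 0.05). No median over all genes is set beside these terms, and the members are not independent of one another. Fitted on the 4 compared groups alone, Csf1r and Laptm5 passed in cortex. Outside the 34, the interaction was called in cortex for Irf8, a transcription factor of macrophages and dendritic cells (-0.88 ± 0.21, adjusted p = 0.0335).

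**Figure D4:**
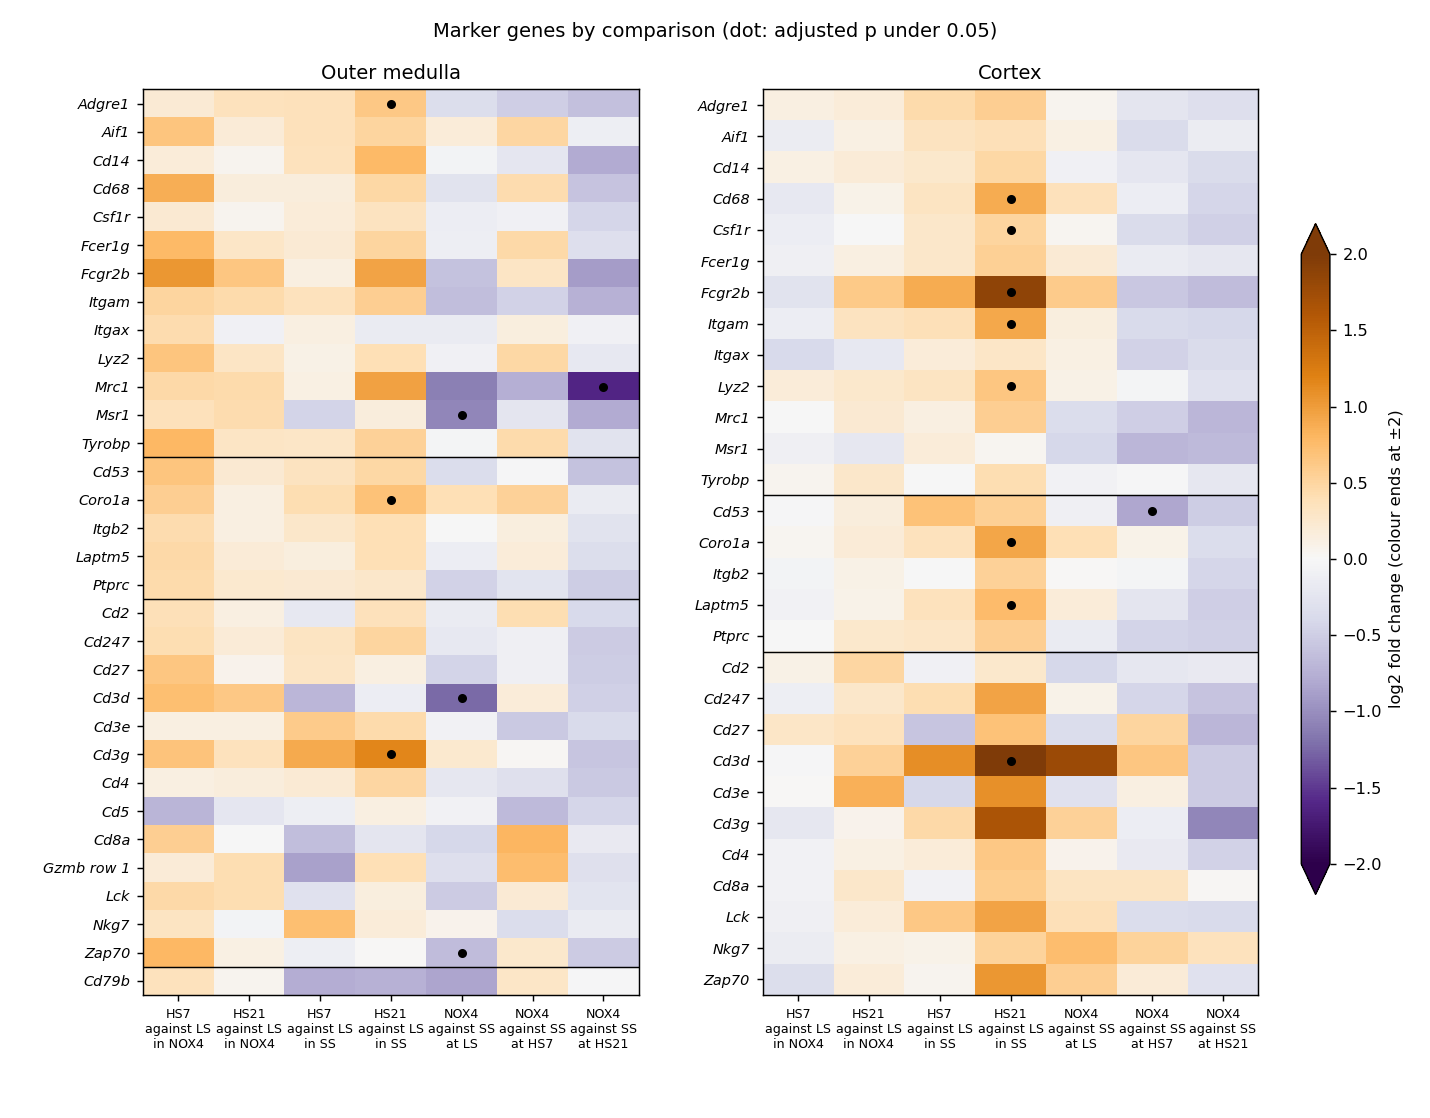
Log2 fold change (colour, orange higher and purple lower in the first-named group, ending at ±2) of each tested member (rows, by class) in 7 comparisons (columns), outer medulla left and cortex right, with dots for calls. The column of HS21 against LS in SS cortex is orange in all 29 rows, and that of NOX4 against SS at HS21 in outer medulla is purple in all 32.

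Other immune genes were counted in the same comparisons. In SS cortex at HS21, 10 of 21 other macrophage and dendritic cell genes were higher than at LS (47.6%, against 16.5% of all genes; median 0.70), led by Irf8 (0.96 ± 0.15, adjusted p = 0.000119), Gpnmb, a glycoprotein of lipid-laden macrophages (1.51 ± 0.31, 0.00190), and the complement gene C1qa (1.00 ± 0.22, 0.00320). In SS outer medulla 5 of 22 were higher and 1 lower (27.3% called, against 9.86% of all genes). Among the higher were C1qa at 1.19 ± 0.26 (0.00551) and the phagocyte receptor gene Trem2 at 1.41 ± 0.32 (0.00607). Of 19 other T and natural killer cell genes none was called in SS outer medulla (edgeR; median log2 fold change 0.28). Between the strains, averaged over diets, 3 of 22 other macrophage genes were lower in NOX4 outer medulla (13.6%, against 30.4% of all genes) and 3 of 21 in NOX4 cortex (14.3%, against 31.7%), both shares under the background. Gpnmb had the smallest p in both (-0.80 ± 0.14, 0.000174, and -0.53 ± 0.18, 0.0221). On the control diet, 3 of 21 genes of this list were called in cortex (14.3%, under the 22.0% of all genes). All 3 were higher in NOX4: Irf8 (0.69 ± 0.15, adjusted p = 0.00146), C1qa (0.74 ± 0.22, 0.0174) and Lyve1 (0.57 ± 0.18, 0.0245). In outer medulla on that diet 4 of 22 were called (18.2%, against 14.8% of all genes). The 3 with the smallest p were lower in NOX4: Clec9a (-0.876 ± 0.231, edgeR adjusted p = 0.0139), Vsig4 (-3.188 ± 0.971, 0.0286) and Gpnmb (-0.798 ± 0.245, 0.03).

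Single libraries moved nearly all members together. In NOX4 cortex at HS7, replicates 3 and 4 were the lowest pair of the 5 in 25 of 29 members, against 24.1% of all genes tested, and replicate 2 was the highest in 26 of 29, against 21.3% of all genes. Lyz2 there had 213, 489, 136, 137 and 196 CPM and Cd4 33.6, 58.8, 15.3, 17.6 and 28.0 CPM. Replicates 3 and 4 also had the lowest sums of thick ascending limb genes (2050 and 1790 CPM) and of fibroblast and matrix genes (421 and 498 CPM) in that group.

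In NOX4 outer medulla at HS7 the libraries of the same numbers stood at the other end. Replicates 3 and 4 were the highest pair in 25 of 32 members, against 32.3% of all genes, with Lyz2 at 823, 1130, 1460, 2060 and 742 CPM and Cd68 at 28.4, 33.1, 57.7, 80.6 and 29.1 CPM. They had the highest red blood cell sums of their group (1130 and 1280 CPM, against 393 to 577 CPM in the others) and the lowest thick ascending limb sums (5900 and 6430 CPM, against 13500 to 16800 CPM). SS outer medulla replicate 3 at HS7 was lowest in 27 of 32 members, against 39.3% of all genes, and had 10400 CPM of genes of the first proximal tubule segments, against 461 to 3670 CPM in the others of its group. SS outer medulla replicate 5 at HS21 was lowest in 26 of 32, against 33.7% of all genes. The part of the sampled piece of tissue or of blood in these libraries was not tested.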

How the data were processed

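Kidney cortex and outer medulla of NOX4 knockout and SS rats were sequenced as poly(A) RNA in 60 libraries. Per the submitters' processing notes the authors used HISAT2 2.0.5, StringTie 1.3.3b and featureCounts 1.5.0-p3. The genome build, annotation and strand setting are not given in the sources used here. Per the file headers, the deposited values used are raw counts per gene and library, gene lengths, and the authors' log2 fold changes and adjusted p-values, whose tool is not stated; the 60 FPKM columns were not used.

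The deposited counts were tested in edgeR 4.0.16 (R 4.3.3): filterByExpr by group, TMM, 1 coefficient per group over the 30 libraries of a tissue (60 for the tissue comparison), quasi-likelihood F test, Benjamini-Hochberg adjustment over all genes tested in a comparison, calls at an adjusted p under 0.05. The SE is the size of the log2 fold change over the square root of F. CPM are counts over the TMM-scaled total. Class means add 0.5 to CPM. DESeq2 1.42.0 was an alternative. The procedure was tested on simulated data.

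The members and lists were chosen with earlier results of these data known, so no list serves as independent support. Values per library were planned for members called between strains and the highest of each class, 14 in all, but not all of these are printed. Msr1 is given by means. Values of Coro1a, Cd3g and Cd68 by library in single groups are examples outside the 14. Other members are given by mean or range, with at most 3 called genes per supporting list. Supporting lists covered other macrophage and dendritic, neutrophil and monocyte, mast, other T and natural killer, other B and plasma, lymphoid stroma, red blood, tubule, podocyte, endothelial, fibroblast and fat cells. P-values measure the spread between these libraries, which the labels do not tie to animals. Reads carry no molecular identifiers.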

Additional observations from a re-analysis of the deposited data

Results flagged for a closer look

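Over the 14 members planned for values by library and the class means, 216 groups of 5 libraries were examined. A library far from the other 4 was flagged (Dixon's ratio above 0.71). Chance flags about 1 in 20 groups, and 22 were found.

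In NOX4 cortex on the control diet replicate 3 stood high in several genes. Csf1r was at 77.4 CPM there (others 59.6 to 64.5), Laptm5 at 48.8 (28.3 to 31.8), Lyz2 at 273 (184 to 200) and Zap70 at 3.44 (1.46 to 1.91). The mean log2 level of T cell members was 1.73 (others 1.17 to 1.27) and that of all members 3.33 (2.77 to 2.87). In NOX4 cortex at HS7 replicate 2 stood high, with Adgre1 at 39.9 CPM (14.1 to 20.9) and Lyz2 at 489 CPM (136 to 213).

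SS outer medulla held the libraries that stood low. At HS21 replicate 5 had Csf1r at 227 CPM (others 323 to 361), Ptprc at 68.6 CPM (108 to 116), a myeloid mean of 5.03 (5.71 to 5.89) and a mean over all members of 4.34 (4.84 to 5.02). At HS7 replicate 3 had Ptprc at 40.0 CPM (103 to 127) and a myeloid mean of 4.43 (5.41 to 5.68). At LS replicate 3 stood high, with a myeloid mean of 5.55 (4.94 to 5.08).

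The other flags were single values. In NOX4 outer medulla at HS21 they were Cd3d in replicate 1 at 2.48 CPM (others 1.83 to 1.98), Laptm5 in replicate 5 at 140 CPM (111 to 117) and Zap70 in replicate 3 at 5.53 CPM (4.37 to 4.61). In NOX4 outer medulla at HS7 they were Adgre1 in replicate 2 at 66.2 CPM (41.5 to 44.5) and Cd79b in replicate 4 at 4.70 CPM (0.752 to 1.88). In SS cortex they were Cd4 in LS replicate 3 at 44.2 CPM (25.4 to 30.1) and the T cell mean in HS21 replicate 3 at 2.15 (1.70 to 1.82).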

How the results depend on the processing

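None of the 29 calls of members in strain and salt comparisons changed direction under any alternative run; members called between tissues were followed by their counts only. Of the counts of called members under alternatives, 302 stayed within 1.5 times the main count and 69 did not. The shares of all genes called under the alternatives are not given beside them. The 30 members called between outer medulla and cortex became 29 with the replicate block and 32 without a filter or by DESeq2, 1 of them lower, and ran from 30 to 31 with 1 replicate number left out. The cause of the moves was not tested; fewer libraries also give less power.

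Averaged over diets, the segment 3 covariate gave 1 call in cortex in place of 5 (Cd53) and 1 in outer medulla in place of 8 (Lyz2, higher in NOX4 and not one of the 8), and leaving out NOX4 HS7 replicates 3 and 4 (chosen after seeing the data) left 1 in cortex. At LS in outer medulla the count of 3 became 0 without a filter or with the covariate, 1 with the replicate block, without low-complexity libraries or with the compared groups alone, and 5 by DESeq2. At HS7 the 1 in cortex became 2 without low-complexity libraries and 0 with the compared groups alone or without NOX4 replicates 3 and 4, and the 0 in outer medulla became 4 without low-complexity libraries, 4 with the covariate and 1 by DESeq2. At HS21 the 0 in cortex became 10 with the compared groups alone, and the 1 in outer medulla became 0 with the replicate block or covariate, 9 without low-complexity libraries, 13 with the compared groups alone and 2 by DESeq2. For HS21 against LS in SS, the 8 in cortex became 1 without low-complexity libraries, 15 with the compared groups alone and 15 by DESeq2, and the 3 in outer medulla became 1 without a filter and 8 without low-complexity libraries. The interaction in cortex became 2 with the compared groups alone, and HS7 against LS in NOX4 outer medulla became 1 by DESeq2.

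With 1 library left out, counts ran from 3 to 11 (cortex) and 6 to 14 (outer medulla) averaged over diets, 0 to 1 and 0 to 4 at LS, 0 to 9 and 0 to 5 at HS7, and 0 to 0 and 0 to 5 at HS21. They ran from 3 to 12 and 0 to 6 for HS21 against LS in SS, and 0 to 1 for HS7 against LS in NOX4 outer medulla. Between groups of a tissue, deviations of same-numbered libraries correlated at 0.008 on average in cortex and -0.006 in outer medulla. Those libraries differ in strain or diet, so the values cannot show whether cortex and outer medulla of a number share an animal. Between cortex and outer medulla of the same group and number the correlation ran from -0.152 to 0.177. The tissue test took these libraries as unpaired, and the block changed no count beyond those above. At these depths members under about 1 CPM, among them Cd3d in cortex, rest on few counts.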

Other observations

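Lists of rarer cells were mostly at or under the filter on low counts. Of 7 matched mast cell genes 1 passed in each tissue, Kit, which the tubules also express and which was lower in NOX4 outer medulla averaged over diets (-0.31 ± 0.09, edgeR adjusted p = 0.0116). Of 7 matched neutrophil and monocyte genes 4 passed in outer medulla and 2 in cortex. In SS rats Plac8 was higher at HS21 than at LS in outer medulla (0.83 ± 0.20, adjusted p = 0.0101) and in cortex (0.32 ± 0.10, 0.0217).

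Chemokine genes of lymphoid stroma went different ways. Cxcl13, which attracts B cells, was higher in outer medulla than in cortex (log2 fold change 3.13 ± 0.18, edgeR adjusted p = 2.20e-22) and lower in NOX4 cortex than in SS cortex averaged over diets (-0.95 ± 0.26, 0.00575). Ccl21, which attracts T cells and dendritic cells, was lower in outer medulla than in cortex (-2.40 ± 0.22, 1.68e-14) and higher in SS cortex at HS21 than at LS (1.22 ± 0.28, 0.00418).

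Among fat, podocyte and vessel genes, Plin1 of fat cells was higher in NOX4 outer medulla than in SS outer medulla (2.57 ± 0.49, adjusted p = 0.000426). Synpo of podocytes was lower there (-0.70 ± 0.14, 0.000491). Plvap of fenestrated vessels was higher in NOX4 in both tissues averaged over diets (0.29 ± 0.10, 0.0236, in outer medulla and 0.31 ± 0.06, 0.000102, in cortex). In cortex its difference was 0.49 ± 0.10 at LS, and the strain by salt interaction at HS21 was called at -0.55 ± 0.13 (adjusted p = 0.0405). No endothelial gene was called between the strains at HS21 in cortex.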
